A study of Homo sapiens with 14 samples.

Results

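The S100 proteins examined here are 10 small calcium-binding proteins, S100A2, S100A4, S100A6, S100A9, S100A10, S100A11, S100A13, S100A14, S100A16 and S100P, whose transcripts were followed by RNA sequencing of compressed liver tumour cells. They are 10 of the 21 S100 genes and of the 56479 gene entries in the count table, matched by gene symbol, and all 10 passed the filter on low counts. The set was chosen by symbol with the levels and changes of these genes in these same libraries already known, so it counts as selected on those values. Their fold changes, p-values and counts below are therefore a description, and the number of members that changed carries no weight as evidence about the family. S100A9 passed the filter through the 4% PEG libraries alone, so it had to differ there. S100A2 reached the filter's cutoff in compressed libraries alone, so its rises were favoured in advance.

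The 14 libraries form 7 groups of 2, from HepG2, a line from a hepatoblastoma, and Hep3B, a line from a hepatocellular carcinoma, both labelled wild type and neither described further. HepG2 cells on dishes were kept for 5 days in 4% PEG (polyethylene glycol 300, which makes the medium hyperosmotic so that cells lose water) or in isotonic medium. Other HepG2 cells grew on transwell membranes, porous inserts in a culture well, under a weight or uncompressed. Hep3B cells on transwells were given 3% PEG, placed under a weight or left uncompressed. The comparisons address how liver tumour cells adapt to osmotic and to mechanical compression. No label states how heavy the weight was or how long transwell cultures lasted, and in HepG2 the kind of compression cannot be told apart from the culture surface.

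S100 proteins are EF-hand proteins, mostly dimers, that change shape when calcium binds and then hold on to other proteins rather than catalysing a reaction. Inside cells their partners include annexins at membranes, ezrin and non-muscle myosin in the cortex, and p53. Some members are also released and act on surface receptors such as RAGE and TLR4 as danger signals. In the liver several of them mark bile duct, inflammatory or tumour cells more than resting hepatocytes.

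Each library held between 21.2 M and 35.4 M counts. A level in CPM is a count scaled by library size, and serves to compare a gene across libraries. A level in TPM is also corrected for transcript length and is used to set genes side by side. Replicates on transwells were close, with a biological coefficient of variation of 0.0434 to 0.0704 for a pair, and farther apart on dishes, at 0.29 in 4% PEG and 0.323 in isotonic medium. RB1, which Hep3B lacks in working form, stood at 2.72 and 2.63 CPM in uncompressed Hep3B, against 131 and 123 CPM in uncompressed HepG2. AFP, the fetal liver protein, was present in every group. In bulk RNA, fewer cells with a transcript and less of it per cell cannot be told apart.

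Of the 10 genes, 9 lie on chromosome 1 within 151982915 to 153631360 (GRCh38, GENCODE 29), a stretch of 1648446 bases with 83 entries of the table, and S100P lies on chromosome 4. S100A11, S100A6 and S100A2 are shown by sequence because they were the 3 members called higher in HepG2 under the weight and also in 4% PEG. The lines below give the 250 bases before a start site listed by RefSeq on GRCh38.p14, 5′ to 3′ on the gene's own strand, which is the minus strand for all 3. Capitals mark a GC box (GGGCGG), an AP-1 match (TGANTCA) or the core of an NFAT5 site (TGGAAA). RefSeq lists a further window for S100A2 (chr1:153563888-153564137), which holds none of these letters and is not printed.
S100A11, chr1:152037005-152037254, minus strand: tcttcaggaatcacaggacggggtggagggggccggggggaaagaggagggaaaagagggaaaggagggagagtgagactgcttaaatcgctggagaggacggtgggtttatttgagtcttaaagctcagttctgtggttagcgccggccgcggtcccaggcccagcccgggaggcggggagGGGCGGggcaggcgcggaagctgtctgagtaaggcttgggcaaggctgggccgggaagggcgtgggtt
S100A6, chr1:153535992-153536241, minus strand: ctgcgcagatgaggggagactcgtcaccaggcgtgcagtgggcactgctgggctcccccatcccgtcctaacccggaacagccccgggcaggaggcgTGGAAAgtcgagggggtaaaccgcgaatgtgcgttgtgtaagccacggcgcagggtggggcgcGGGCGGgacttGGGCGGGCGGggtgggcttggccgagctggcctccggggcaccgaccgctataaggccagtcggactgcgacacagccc
S100A2, chr1:153565845-153566094, minus strand: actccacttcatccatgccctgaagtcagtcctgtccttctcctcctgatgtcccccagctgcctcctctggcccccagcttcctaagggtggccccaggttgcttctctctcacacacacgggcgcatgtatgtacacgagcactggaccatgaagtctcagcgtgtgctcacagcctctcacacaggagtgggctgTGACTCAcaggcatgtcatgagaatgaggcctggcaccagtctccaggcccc

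The 3 windows differ in composition. G and C make up 63.6% of the S100A11 window, 70% of the S100A6 window and 59.2% of the printed S100A2 window. RefSeq lists 14 windows for the 10 genes, each running from 250 bases before to 50 bases after a start, and these were searched on both strands. The AP-1 letters occurred in a window of S100A2 only, starting at position -52 from the start site, while 7.7% of 35116 human promoter windows hold them. The NFAT5 core occurred in S100A6 only, at position -153, and in 20.7% of all windows. The TEAD letters (GGAATG) occurred in S100A16 only and in 14% of all windows, and the ETS letters (CCGGAAG) in S100A9 only and in 10.3%. A GC box occurred in 6 of the 14 windows, or 42.9%, each from a different gene, and in 45.0% of all windows, and 2 of the 3 GC boxes of S100A6 overlap each other. These are matches of letters and show no binding.

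In 4% PEG, HepG2 cells carried more of most of these transcripts. S100A11, S100A6, S100A10, S100A14, S100A16, S100A13, S100A2 and S100A9 rose, none of the 10 fell, and S100A4 and S100P were not called. That is 8 of 10 members called, where 46.9% of the 19232 tested genes were called in the same comparison, so that a call is common there. With the dish libraries fitted alone, 7 members were called, among 3764 genes in all. The members' median log2 fold change was 2.29, beside 0.01 over all tested genes. Summed over the 10 genes, the level reached 2689 and 3710 TPM in 4% PEG, against 467 and 716 TPM in isotonic medium.

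Under the weight, HepG2 cells carried more S100A11, S100A6 and S100A2. These 3 of 10 members were called higher and none lower, where 9.58% of tested genes were called. The members' median log2 fold change was 0.55, beside 0 over all tested genes. Summed over the 10 genes, the level was 947 and 938 TPM under the weight, against 535 and 588 TPM without it. Transwell pairs vary less than dish pairs, and with the 10 transwell libraries fitted alone 8 members were called in this comparison, among 7046 genes in all.

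In Hep3B cells under the weight, S100A11 was the member called higher, 1 of 10, where 1.05% of tested genes were called. The median log2 fold change over the 9 members with more than 2 counts in the comparison was 0.33, beside -0.01 over all tested genes. The summed level was 902 and 990 TPM under the weight, against 974 and 926 TPM without it, and the groups overlapped. With transwell libraries alone, 3 members were called here, among 2782 genes.

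In Hep3B cells in 3% PEG the members parted. S100A11, S100P, S100A2 and S100A10 rose, while S100A13 and S100A4 fell. These 6 of 10 members compare with 22.5% of tested genes called. The median log2 fold change over the 9 members with more than 2 counts was -0.25, beside -0.01 over all tested genes. The summed level was 853 and 963 TPM in 3% PEG, against 974 and 926 TPM uncompressed. The Hep3B comparisons with the weight and with 3% PEG share their uncompressed libraries, so their values are not independent of each other. A gap without overlap between 2 groups of 2 libraries is common. It was found in 60.1% of tested genes in 4% PEG and 65.4% under the weight in HepG2. In Hep3B the shares were 53.2% under the weight and 73% in 3% PEG.

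**Figure D1:**
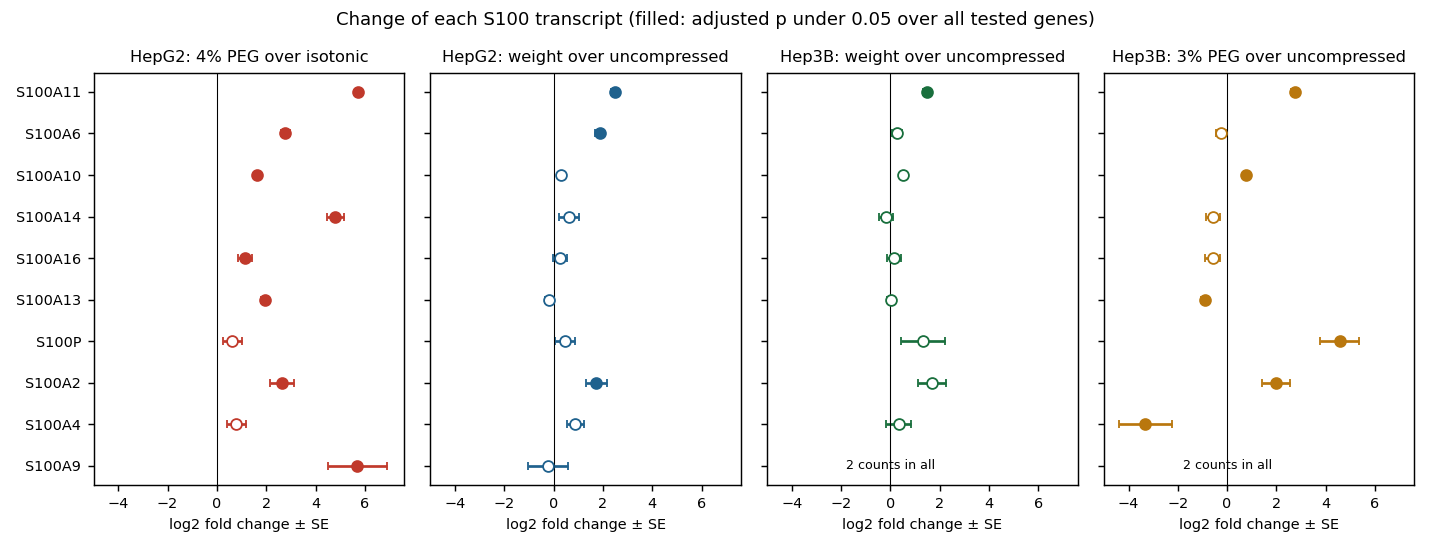
Log2 fold change of each S100 transcript with its standard error (horizontal axis) in the 4 compression comparisons, edgeR fit of all 14 libraries, 2 libraries a group. Filled points have an adjusted p under 0.05 over all 19232 tested genes; S100A11 is filled in every panel, at 5.73, 2.47, 1.48 and 2.73 from left to right, and S100A9 is left out in Hep3B, where it had 2 counts in each comparison.

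S100A11 (ENSG00000163191, chr1:152032506-152047907, minus strand), which binds annexin A1 at membranes and takes part in their repair, changed most in 4% PEG. It stood at 223 and 263 CPM in 4% PEG, against 4.17 and 5.02 CPM in isotonic medium. Both PEG libraries lay far above both isotonic ones, and the difference was 52.9-fold (log2 fold change 5.73 ± 0.14 SE, adjusted p = 1.59e-09). This and the other adjusted p-values come from edgeR's quasi-likelihood fit, corrected over all tested genes by the Benjamini-Hochberg method. The change ranged from 5.58 to 5.86 when each of the 14 libraries was left out in turn. Under the weight it stood at 25.01 and 26.15 CPM in HepG2, against 4.64 and 4.59 CPM uncompressed (2.47 ± 0.14, adjusted p = 5.75e-06). In Hep3B it stood at 22.4 and 24.3 CPM in 3% PEG and at 10.2 and 9.36 CPM under the weight, against 3.70 and 3.30 CPM uncompressed. Every compressed library of Hep3B therefore lay above both uncompressed ones, by 2.73 ± 0.14 in 3% PEG (adjusted p = 6.29e-07) and 1.48 ± 0.15 under the weight (adjusted p = 0.000522). S100A11 was called in all 4 compression comparisons under every alternative tried, apart from the weight in Hep3B when a log2 fold change of at least 1 was asked for (adjusted p = 0.286). The 8 table entries named as S100A11 pseudogenes held 40 counts in the 4% PEG group and 1 count in the isotonic group, beside 14730 and 225 counts for S100A11 itself.

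S100A6 (ENSG00000197956, chr1:153534599-153536244, minus strand), also called calcyclin, binds the calcyclin-binding protein CACYBP and annexins. It stood at 69.2 and 101 CPM in 4% PEG, against 11.4 and 13.4 CPM in isotonic medium (2.78 ± 0.18, adjusted p = 5.04e-07). Under the weight HepG2 held 44.3 and 36.1 CPM, against 11.2 and 10.8 CPM uncompressed (1.87 ± 0.18, adjusted p = 0.000148). In neither HepG2 comparison did the groups overlap, as for 60.1% and 65.4% of tested genes. In Hep3B it was not called in either comparison, with 3.99 and 4.13 CPM in 3% PEG and 5.81 and 5.70 CPM under the weight, against 4.93 and 4.70 CPM uncompressed. Its changes there were -0.25 ± 0.20 (adjusted p = 0.435) and 0.26 ± 0.20 (adjusted p = 0.903).

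S100A10 (ENSG00000197747, chr1:151982915-151994390, minus strand), or p11, does not respond to calcium and forms a fixed complex with annexin A2 that captures plasminogen at the cell surface. It stood at 228 and 190.2 CPM in 4% PEG, against 73.1 and 63.2 CPM in isotonic medium (1.62 ± 0.12, adjusted p = 9.28e-07). Under the weight it was 87.9 and 84.8 CPM in HepG2, against 70.04 and 69.67 CPM uncompressed, a gap without overlap but not called (0.31 ± 0.12, adjusted p = 0.148). Such a gap was found in 65.4% of tested genes. Hep3B held 20.1 and 20.8 CPM in 3% PEG and 16.4 and 18.0 CPM under the weight, against 12.2 and 11.7 CPM uncompressed. The change was called in 3% PEG (0.77 ± 0.13, adjusted p = 0.00118) and missed the threshold under the weight (0.52 ± 0.13, adjusted p = 0.0943). With transwell libraries alone the weight comparisons of S100A10 were both called, at 0.34 in HepG2 (adjusted p = 7.18e-05) and 0.55 in Hep3B (adjusted p = 1.54e-05).

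**Figure D2:**
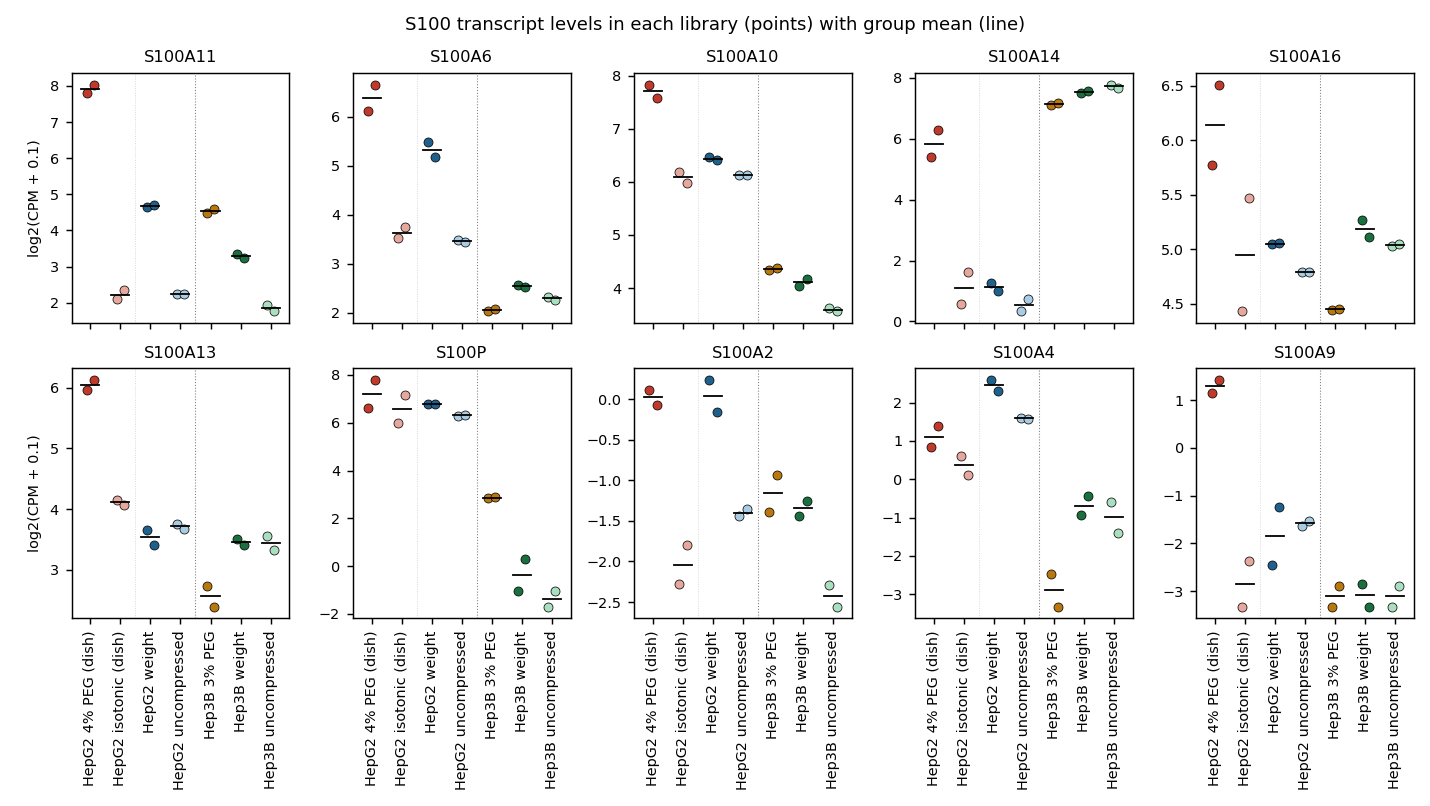
Level of each S100 transcript in every library as log2(CPM + 0.1) (vertical axis, own scale in each panel), with a line at the mean of the 2 libraries of a group. S100A11 lies higher in all compressed libraries than in the uncompressed libraries of its line and surface, S100A14 is high in all 6 Hep3B libraries, and S100P is high in all 8 HepG2 libraries.

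S100P (ENSG00000163993, chr4:6693069-6697170, plus strand), first purified from placenta, binds ezrin and the receptor RAGE. It stood at 99.3 and 222 CPM in 4% PEG, against 63.9 and 144 CPM in isotonic medium, and the groups overlapped (0.63 ± 0.39, adjusted p = 0.216). That comparison hung on single dish libraries, between -0.07 without the second PEG library and 1.33 without the second isotonic library. It was called without that isotonic library and without the first PEG library (1.06). With all 14 libraries kept and no low-count filter, edgeR also called it (0.59, adjusted p = 0.00369). Under the weight HepG2 held 109.8 and 109.1 CPM, against 78.0 and 81.1 CPM uncompressed (0.46 ± 0.40, adjusted p = 0.556), a difference called with transwell libraries alone (0.49, adjusted p = 3.26e-05). In Hep3B the transcript stood at 7.13 and 7.27 CPM in 3% PEG and 0.38 and 1.12 CPM under the weight, against 0.21 and 0.39 CPM uncompressed. The 3% PEG libraries lay above all others of the line (4.57 ± 0.79, adjusted p = 0.000469), while the libraries under the weight overlapped the uncompressed ones (1.31 ± 0.90, adjusted p = 0.834; with transwell libraries alone 1.34, adjusted p = 0.0394).

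S100A4 (ENSG00000196154, chr1:153543613-153550136, minus strand), or metastasin, binds non-muscle myosin heavy chain. It was a scarce transcript in both lines. HepG2 held 1.68 and 2.52 CPM in 4% PEG, against 1.41 and 0.99 CPM in isotonic medium (0.79 ± 0.38, adjusted p = 0.109). Under the weight HepG2 held 5.93 and 4.86 CPM, against 2.94 and 2.90 CPM uncompressed (0.89 ± 0.34, adjusted p = 0.142), the highest levels of S100A4 in the series. That difference was called with transwell libraries alone (0.92, adjusted p = 0.00191). In Hep3B the counts were 2 and 0 in 3% PEG and 11 and 16 under the weight, against 16 and 8 uncompressed. The ratio of 3% PEG to uncompressed was 0.0896 with an exact 95% interval of 0.0103 to 0.361, which covers counting error only (adjusted p = 0.0122). The call was lost without the second 3% PEG library (-2.32, adjusted p = 0.106) or without the first uncompressed library (-2.75, adjusted p = 0.0987), and without the first 3% PEG library no count remained in 3% PEG (fitted value -6.48).

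S100A13 (ENSG00000189171, chr1:153618787-153631360, minus strand) helps carry FGF1 and interleukin 1 alpha out of cells by a route that bypasses the secretory pathway. It stood at 62.0 and 69.8 CPM in 4% PEG, against 17.7 and 16.7 CPM in isotonic medium (1.94 ± 0.16, adjusted p = 2.31e-06). Under the weight HepG2 held 12.5 and 10.6 CPM, against 13.4 and 12.6 CPM uncompressed (-0.18 ± 0.17, adjusted p = 0.596). Hep3B fell to 6.53 and 5.16 CPM in 3% PEG, against 11.7 and 9.96 CPM uncompressed (-0.89 ± 0.17, adjusted p = 0.00304), and held 11.3 and 10.5 CPM under the weight. The fall was not called without the second 3% PEG library (-0.73, adjusted p = 0.0537). S100A13 shares 10.6% of its exon bases with S100A1 on the opposite strand and 24.2% with the transcript AL162258.1 on its own strand. Nothing states whether the counting used strand, so reads of S100A13 and S100A1 cannot be told apart there. AL162258.1 itself held between 0 and 11 counts in a group.

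S100A9 (ENSG00000163220, chr1:153357854-153361027, plus strand) pairs with S100A8 to form calprotectin, a major protein of neutrophils and monocytes that signals through TLR4 and RAGE. The 4% PEG libraries held 67 and 76 counts of it, or 2.13 and 2.59 CPM, against 0 and 2 counts in the isotonic libraries. The ratio was 58.2 with an exact 95% interval of 15.8 to 485 (adjusted p = 0.000101). S100A9 passed the low-count filter through the 4% PEG libraries alone, so it had to differ there. The fitted log2 change of 5.69 moved to 4.57 without the first isotonic library and to 8.95 without the second, where no isotonic count remained. HepG2 held 2 and 7 counts under the weight, against 5 and 6 uncompressed (-0.24 ± 0.82, adjusted p = 0.922), and the 6 Hep3B libraries held at most 1 count each. S100A8 had no count in any of the 14 libraries.

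Markers of blood cells were read beside S100A9. Among the 8 markers of the myeloid list 4 could be tested. In 4% PEG 2 were called higher and 1 lower, where 46.9% of all tested genes were called. The leukocyte antigen PTPRC had no count in the 8 HepG2 libraries, and FCGR3A had none in any library. CD68, a lysosomal protein, stood at 7.91 and 10.9 CPM in 4% PEG, against 1.80 and 1.88 CPM in isotonic medium. MPO, the neutrophil peroxidase, had 19 counts in the 4% PEG group and none in the isotonic group. The summed level of the list was 572 and 500.1 CPM in 4% PEG, against 4629 and 3784 CPM in isotonic medium, nearly all of it lysozyme (LYZ), which HepG2 itself carries at 4626 and 3779 CPM in isotonic medium. ITGAM, an integrin of myeloid cells, reached 22 counts in the 4% PEG group and 3 in the isotonic group (ratio 5.97, exact 95% interval 1.79 to 31.2, adjusted p = 0.0284). The part of such cells in the S100A9 value was not tested.

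S100A14 (ENSG00000189334, chr1:153614255-153616986, minus strand) is a protein of epithelia that binds calcium poorly. In HepG2 it stood at 42.3 and 77.8 CPM in 4% PEG, against 1.38 and 3.00 CPM in isotonic medium, without overlap, as for 60.1% of tested genes (4.81 ± 0.33, adjusted p = 6.76e-07). The change was 5.44 without the second isotonic library. Under the weight HepG2 held 2.32 and 1.91 CPM, against 1.16 and 1.57 CPM uncompressed (0.63 ± 0.41, adjusted p = 0.411; with transwell libraries alone 0.67, adjusted p = 0.0122). In Hep3B, S100A14 was abundant throughout, at 139 and 143 CPM in 3% PEG and 182 and 189.8 CPM under the weight, against 219.8 and 202 CPM uncompressed. Both compressed groups of Hep3B lay below the uncompressed libraries without a call, at -0.58 ± 0.27 in 3% PEG (adjusted p = 0.155) and -0.18 under the weight. Groups lay apart in this way for 73% and 53.2% of tested genes. With transwell libraries alone the 3% PEG difference was called at -0.55 (adjusted p = 6e-09).

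S100A16 (ENSG00000188643, chr1:153606886-153613145, minus strand) is found in many tissues. It stood at 54.6 and 91.2 CPM in 4% PEG, against 21.5 and 44.1 CPM in isotonic medium, where the lower PEG library lay just above the higher isotonic one (1.16 ± 0.28, adjusted p = 0.00617). Without the second PEG library the change was 0.74 (adjusted p = 0.0578), without the first isotonic library 0.71 (adjusted p = 0.0245), and without the second isotonic library 1.76 (adjusted p = 0.000109). Fitted on the dish libraries alone it was not called (adjusted p = 0.102). On transwells HepG2 held 32.9 and 33.2 CPM under the weight, against 27.7 and 27.6 CPM uncompressed (0.26 ± 0.29, adjusted p = 0.666). Hep3B held 21.6 and 21.8 CPM in 3% PEG and 38.3 and 34.6 CPM under the weight, against 32.5 and 33.0 CPM uncompressed, with a change of -0.59 ± 0.29 in 3% PEG (adjusted p = 0.169). S100A16 was, with transwell libraries alone, called lower in 3% PEG (-0.56, adjusted p = 1.76e-07) and higher under the weight in HepG2 (0.29, adjusted p = 0.0018). In 3% PEG it was also called without the first or the second isotonic library (-0.60 in both, adjusted p = 0.0302 and 0.03).

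S100A2 (ENSG00000196754, chr1:153561108-153567890, minus strand), known from skin and other stratified epithelia, binds p53 and was scarce in both lines. Its counts were 31 and 25 in 4% PEG, against 3 and 4 in isotonic medium (2.65 ± 0.48, adjusted p = 0.000352). Only compressed libraries reached the cutoff of the low-count filter, which favoured a rise of S100A2 in advance. HepG2 held 26 and 17 counts under the weight, against 6 and 7 uncompressed (1.74 ± 0.41, adjusted p = 0.0171). That call was lost without either uncompressed library (adjusted p = 0.138 and 0.126) and without the first library under the weight (adjusted p = 0.163). Hep3B held 7 and 12 counts in 3% PEG and 7 and 8 under the weight, against 3 and 2 uncompressed. The changes were 1.97 ± 0.57 in 3% PEG (adjusted p = 0.0174) and 1.69 ± 0.58 under the weight (adjusted p = 0.296). DESeq2 did not call S100A2 in 3% PEG (adjusted p = 0.0673), nor did edgeR without the low-count filter (adjusted p = 0.052). The call in 3% PEG was lost without the first or the second uncompressed library (adjusted p = 0.0741 and 0.132) or the second 3% PEG library (adjusted p = 0.194).

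The order of the members differed between the lines. In uncompressed Hep3B, S100A14 led with 755 ± 31.7 TPM, which was 79.8% and 79.1% of the summed level in the 2 libraries, followed by S100A16 with 88.0 ± 2.39 TPM. In uncompressed HepG2, S100P led with 229 ± 19.8 TPM (SD, n = 2 here and below), followed by S100A10 with 167 ± 9.16 TPM and S100A16 with 59.9 ± 3.41 TPM. S100A11 stood at rank 4 in uncompressed Hep3B with 23.5 ± 1.52 TPM, where S100A6 and S100A13 lay within 1 SD of it, and at rank 5 in uncompressed HepG2 with 25.04 ± 1.29 TPM. In 4% PEG it led all 10 with 1371 ± 217 TPM, or 45.3% and 41.1% of the summed level, against 4.44% and 3.49% in isotonic medium. In Hep3B it stood at rank 2 in 3% PEG with 169.8 ± 20.2 TPM and at rank 3 under the weight with 66.2 ± 0.41 TPM. S100P, with 487 ± 280.2 TPM in 4% PEG, could not be placed apart from S100A10, with 518 ± 44.4 TPM.

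**Figure D3:**
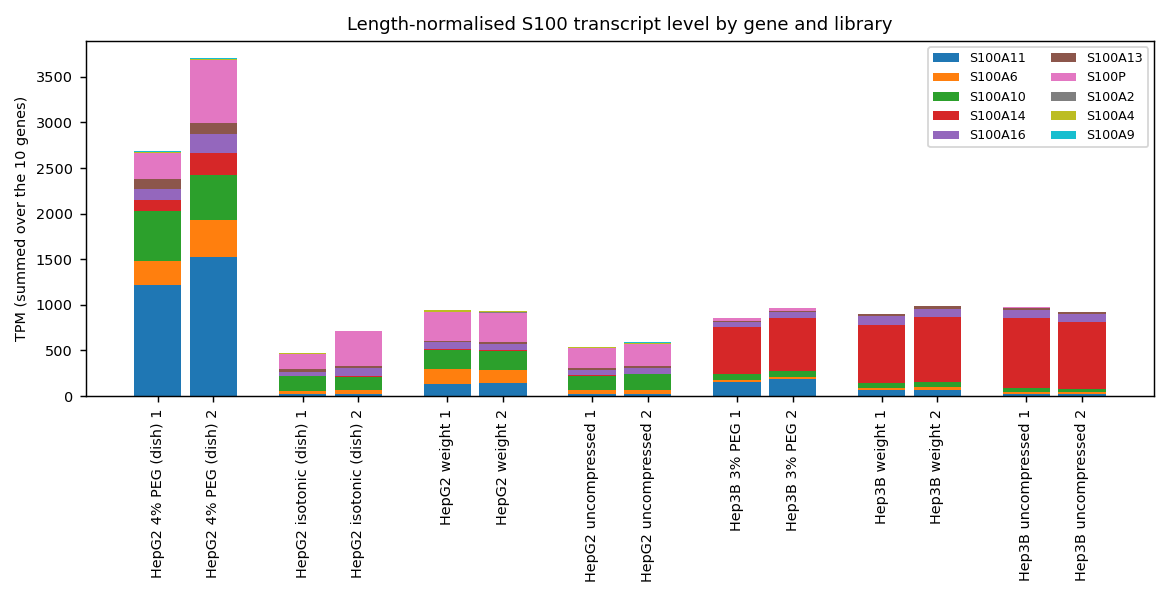
Length-corrected level (TPM, vertical axis) of the 10 S100 transcripts stacked by gene for each of the 14 libraries. The 4% PEG bars reach 2689 and 3710 TPM with S100A11 as their largest part, and S100A14 fills 60.0% to 79.8% of every Hep3B bar.

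Compared directly, uncompressed Hep3B and HepG2 differed in 8 of 10 members, where 54.7% of tested genes were called. S100A14 was 153-fold higher in Hep3B (7.26 ± 0.36, adjusted p = 2.65e-08). Hep3B held less S100P (-8.04 ± 0.78, adjusted p = 6.64e-07), S100A10 (-2.54 ± 0.12, adjusted p = 1.79e-08), S100A4 (-2.78 ± 0.44, adjusted p = 0.000163) and S100A6 (-1.19 ± 0.19, adjusted p = 0.000287). S100A9, with 1 count in Hep3B and 11 in HepG2, S100A2 (-1.62 ± 0.59, adjusted p = 0.0368) and S100A11 (-0.40 ± 0.15, adjusted p = 0.0442) were also called lower in Hep3B. With all libraries kept, DESeq2 called neither S100A2 (adjusted p = 0.108) nor S100A11 (adjusted p = 0.0958). Without the low-count filter edgeR called neither of them (adjusted p = 0.102 and 0.199). S100A11 was also missed by edgeR with RLE factors (adjusted p = 0.0576). All 3 calls rested on single libraries as well. That of S100A9 was lost without the first uncompressed Hep3B library (adjusted p = 0.147) or either uncompressed HepG2 library (0.0695 and 0.0915), that of S100A2 without any of the 4 uncompressed libraries (adjusted p from 0.0749 to 0.169), and that of S100A11 without any of the 10 transwell libraries (adjusted p from 0.062 to 0.233). S100A13 and S100A16 were not called (adjusted p = 0.196 and 0.496).

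Between uncompressed HepG2 on transwells and isotonic HepG2 on dishes edgeR called 0 of the 10 members, where 10.1% of tested genes were called. That share depends on the fit, since with these groups fitted alone 0 genes were called in all (main 1947). Culture time on transwells and the sequencing run of each library are not stated, so they cannot be told apart from the surface. At an unadjusted p under 0.05 there were 3, S100A4 (1.26 ± 0.38, adjusted p = 0.0554), S100A9 (adjusted p = 0.181) and S100A13 (-0.40 ± 0.16, adjusted p = 0.145). DESeq2 called 1 member, S100A4 (adjusted p = 0.0172). S100A11 stood at 4.64 and 4.59 CPM on transwells and 4.17 and 5.02 CPM on dishes, a difference of 0.01 ± 0.15.

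Setting the weight directly against 3% PEG in Hep3B called 4 of 10 members, where 23.1% of tested genes were called. S100A11 and S100P were lower under the weight than in 3% PEG, by -1.25 ± 0.14 (adjusted p = 7.21e-05) and -3.26 ± 0.61 (adjusted p = 0.00182). The S100P value was -4.21 without the second library under the weight. S100A13 was higher under the weight (0.90 ± 0.17, adjusted p = 0.00288), and so was S100A4, with 27 counts against 2 (ratio 14.04, exact 95% interval 3.53 to 122, adjusted p = 0.00629). Both of these calls were lost without the second 3% PEG library (adjusted p = 0.0525 and 0.0624), and that of S100A4 also without the second library under the weight (adjusted p = 0.0508). Without the first 3% PEG library the S100A4 value was 6.80, with no count left in 3% PEG.

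Whether the weight acted differently in the lines was tested as an interaction, which called 2 of 10 members, where 1.89% of tested genes were called. The weight effect in Hep3B minus that in HepG2 was -1.62 ± 0.27 for S100A6 (adjusted p = 0.0121) and -0.99 ± 0.20 for S100A11 (adjusted p = 0.0331). S100A6 rose under the weight in HepG2 and was not called in Hep3B, while S100A11 rose in both lines, by less in Hep3B. Most single libraries decide these calls. With 1 transwell library left out, the S100A6 call was lost for either uncompressed library of either line, either Hep3B library under the weight and the first HepG2 library under the weight (adjusted p from 0.0591 to 0.0803). The S100A11 call was lost for each of the 10 transwell libraries (adjusted p from 0.07 to 0.191). With transwell libraries alone 3 members were called, S100A14 among them (-0.81, adjusted p = 0.00323).

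In HepG2 the effect of 4% PEG on dishes exceeded that of the weight on transwells for 6 of 10 members, where 29.9% of tested genes differed. The excess was 3.26 ± 0.20 for S100A11 (adjusted p = 7.62e-07), 4.18 ± 0.53 for S100A14 (adjusted p = 0.000158), 2.11 ± 0.23 for S100A13 (adjusted p = 4.43e-05) and 1.31 ± 0.17 for S100A10 (adjusted p = 0.000158). S100A9 belongs to the 6 as well (5.93 ± 1.46, adjusted p = 0.00336). It passed the low-count filter through the 4% PEG libraries alone, so an excess was favoured in advance and its call is no evidence. Without the second isotonic library its excess was 9.19, with no isotonic count left. For S100A6 it was 0.91 ± 0.26 (adjusted p = 0.0212), and the call was lost without the second PEG library, either uncompressed library or the second library under the weight (adjusted p from 0.0576 to 0.101). S100A2, S100A16, S100A4 and S100P showed no called difference between the effects (0.92 ± 0.63, 0.90 ± 0.40, -0.10 ± 0.51 and 0.17 ± 0.56). Surface and dose differ along with the kind of compression, culture time and sequencing run may differ as well, and the share of each cannot be told apart.

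Of the other 11 S100 genes, 2 could be tested. S100A1, a calcium sensor best known from heart muscle, lies beside S100A13 on the opposite strand. It stood at 150.4 and 220.1 CPM in 4% PEG, against 50.9 and 74.0 CPM in isotonic medium (1.57 ± 0.21, adjusted p = 0.000112), and at 44.4 and 47.9 CPM under the weight in HepG2, against 51.9 and 51.3 CPM uncompressed. In Hep3B it fell to 1.41 and 1.24 CPM in 3% PEG, against 3.49 and 3.12 CPM uncompressed (-1.32 ± 0.29, adjusted p = 0.00651). The directions of S100A1 and S100A13 were thus the same in both PEG comparisons, with the shared exon bases noted above. S100A3, known from hair cuticle, stood at 2.16 and 3.57 CPM in 4% PEG, against 0.18 and 0.28 CPM in isotonic medium (3.65 ± 0.50, adjusted p = 0.000125). Under the weight it stood at 1.58 and 1.68 CPM in HepG2, against 0.31 and 0.41 CPM uncompressed (2.15 ± 0.46, adjusted p = 0.015), and Hep3B held at most 1 count in a library. S100A3 passed the low-count filter through these compressed HepG2 libraries alone, so its rises were favoured in advance.

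The remaining 9 were at or near zero. S100B, known from glia, reached 23 and 5 counts in the 4% PEG libraries and none in the isotonic ones, which is at least 7.6-fold higher against a floor of 3 counts over the isotonic group. S100A5 reached 10 counts in the 4% PEG group and 1 in the isotonic group (ratio 8.14, exact 95% interval 1.16 to 353), and 13 counts under the weight in HepG2 against 1 uncompressed (ratio 13.3, 2.00 to 565). S100Z had 11 counts under the weight in HepG2 against 1 uncompressed (ratio 11.3, 1.64 to 485). S100A7, S100A7A and S100G totalled 2, 1 and 3 counts over all libraries, and S100A8, S100A12 and S100A7L2 had none.

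The 9 members on chromosome 1 share their interval with 65 entries that are not S100 genes, many of them genes of the skin barrier. Only 4 of the 65 passed the filter on low counts. In 4% PEG the pseudogene RPLP0P4 was called lower (-1.72 ± 0.65, adjusted p = 0.0392). The skin protein filaggrin (FLG) had 86 counts under the weight in HepG2, against 6 uncompressed; it passed the filter through the libraries under the weight alone, so it had to differ there and its call is no evidence. No other of the 4 was called in these comparisons, and none in Hep3B. Neighbouring members did not always share a direction, since in 3% PEG S100A2 rose beside S100A4, which fell. Both calls rested on few counts and on single libraries, as given above, and the rise of S100A2 was favoured in advance.

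**Figure D4:**
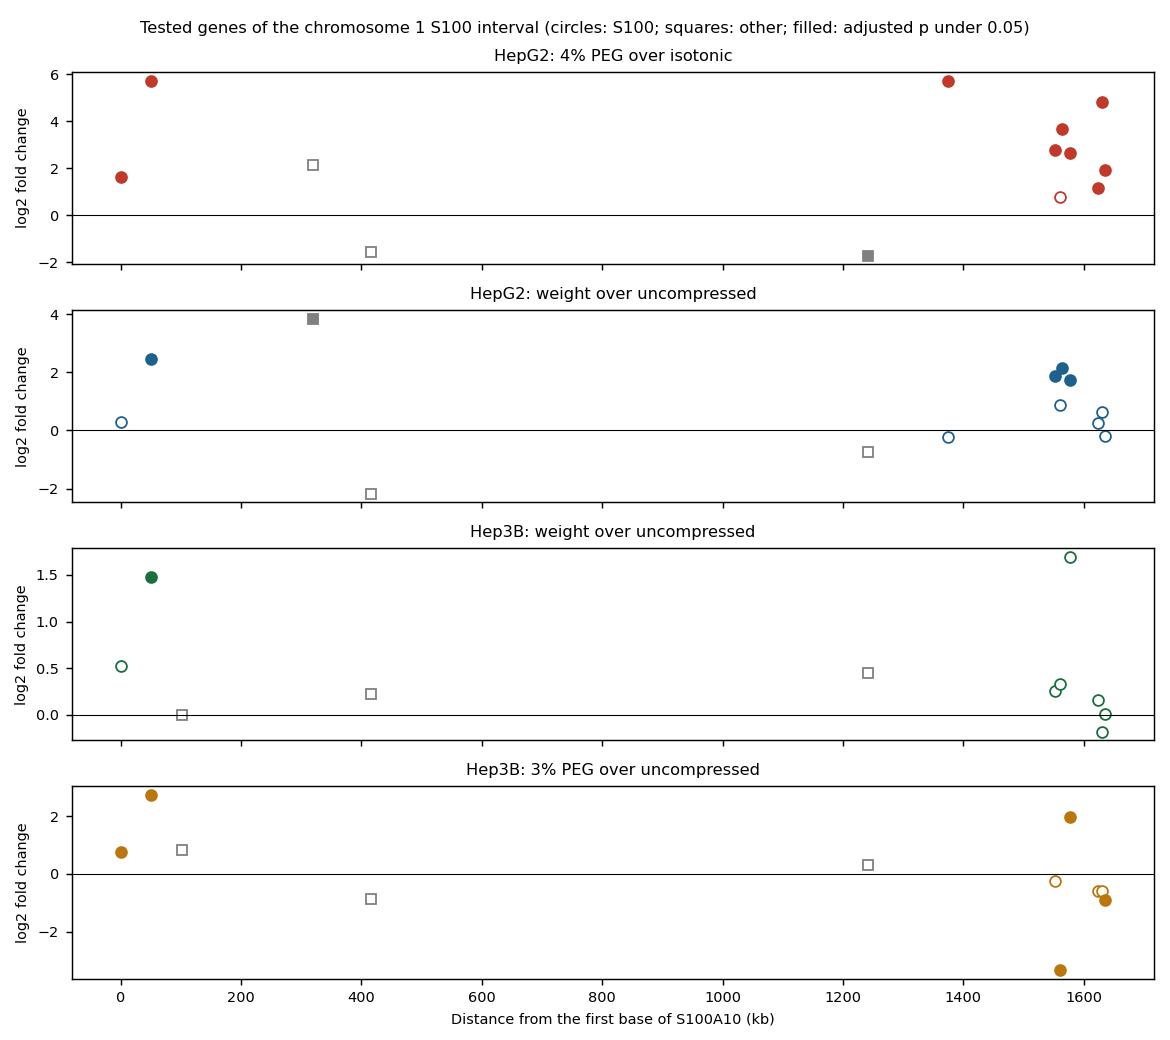
Log2 fold change (vertical axis, own scale in each panel) of the tested genes of the chromosome 1 interval against distance from the first base of S100A10 in kb (horizontal axis). Circles are S100 genes, S100A3 included, squares other genes, and filled points have an adjusted p under 0.05. S100A1, which reaches past the end of the interval, is not drawn. Genes with 3 counts or fewer in both groups or with none in a group are not drawn either.

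Genes of S100 partners had a lower median. Of 15 such genes 12 could be tested. In 4% PEG 6 of these were called higher and 1 lower, where 46.9% of all tested genes were called. Their median log2 fold change was 0.80 over the 11 that had a fold, against 2.29 for the 10 S100 genes. The S100 genes and the lists were chosen with earlier results of these data known, so the gap between medians is a description. Ezrin (EZR), which links membrane to actin, stood at 215 and 221 CPM in 4% PEG, against 71.4 and 70.6 CPM in isotonic medium (1.62 ± 0.09, adjusted p = 1.53e-07). IQGAP1, a scaffold at the cell cortex, stood at 499 and 430 CPM, against 197 and 138 CPM (1.47 ± 0.15, adjusted p = 1.02e-05). Annexin A2 (ANXA2), chosen after its values were seen as the partner of S100A10, stood at 465 and 386 CPM in 4% PEG, against 254 and 236 CPM in isotonic medium (0.80 ± 0.11, adjusted p = 0.000104), beside 1.62 ± 0.12 for S100A10; the difference between those changes was not tested.

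Annexin A1 (ANXA1), the partner of S100A11, was scarce in both lines and passed the low-count filter through compressed libraries alone. Its counts were 23 in the 4% PEG group and 3 in the isotonic group (ratio 6.24, exact 95% interval 1.89 to 32.5), and 122 counts under the weight in HepG2 against 1 uncompressed (ratio 125, 21.99 to 4972). In Hep3B it stood at 2.58 and 1.59 CPM in 3% PEG, against 0.14 and 0.11 CPM uncompressed (4.03 ± 0.69, adjusted p = 0.000524). Annexin A11 (ANXA11) rose in 4% PEG (0.90 ± 0.12, adjusted p = 6.61e-05) and fell in Hep3B in 3% PEG (-0.51, adjusted p = 0.00817). Over the tested partner genes, 2 were called higher and none lower under the weight in HepG2, and none under the weight in Hep3B. In 3% PEG 2 were called higher and 1 lower. Among all tested genes 9.58%, 1.05% and 22.5% were called, in the same order.

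Surface receptors of released S100 proteins were 5 genes, all tested. In 4% PEG 1 was called higher and 3 lower, where 46.9% of all tested genes were called. Under the weight in HepG2 1 was called higher, where 9.58% of all tested genes were called. TLR4, a receptor of S100A9, stood at 5.33 and 3.74 CPM in 4% PEG, against 0.42 and 0.33 CPM in isotonic medium (3.56 ± 0.36, adjusted p = 3.95e-05). Under the weight it stood at 5.31 and 4.81 CPM in HepG2, against 0.71 and 0.58 CPM uncompressed (2.96 ± 0.32, adjusted p = 0.000876), and it had no count in the 6 Hep3B libraries. Basigin (BSG), ALCAM and CD36 fell in 4% PEG, with log2 fold changes of -1.68, -1.26 and -2.24. In Hep3B no receptor was called.

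Other EF-hand calcium proteins were read beside the S100 genes. Of 30 such genes, all tested, 12 were called higher and 6 lower in 4% PEG, with a median log2 fold change of 0.27. Under the weight in HepG2 3 were called higher and 1 lower (median -0.10), and under the weight in Hep3B none (median -0.06). In 3% PEG 4 were called higher and 5 lower (median -0.24). The shares of all tested genes called in these 4 comparisons were 46.9%, 9.58%, 1.05% and 22.5%, in the same order. The calpain subunit CAPN2, a calcium-dependent protease, rose in both PEG comparisons. It stood at 557 and 587 CPM in 4% PEG, against 11.95 and 10.75 CPM in isotonic medium (5.65 ± 0.11, adjusted p = 6.39e-10). It also rose under the weight in HepG2 (2.10 ± 0.11, adjusted p = 5.48e-06) and in 3% PEG in Hep3B (0.83 ± 0.10, adjusted p = 0.00022). The centrin CETN2 fell in 3% PEG (-1.43 ± 0.14, adjusted p = 4.79e-05) and calumenin (CALU), a protein of the secretory pathway, in 4% PEG (-1.26 ± 0.15, adjusted p = 4.07e-05). TBC1D9 rose in 4% PEG (0.57 ± 0.11) and fell in 3% PEG (-0.97 ± 0.11).

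**Figure D5:**
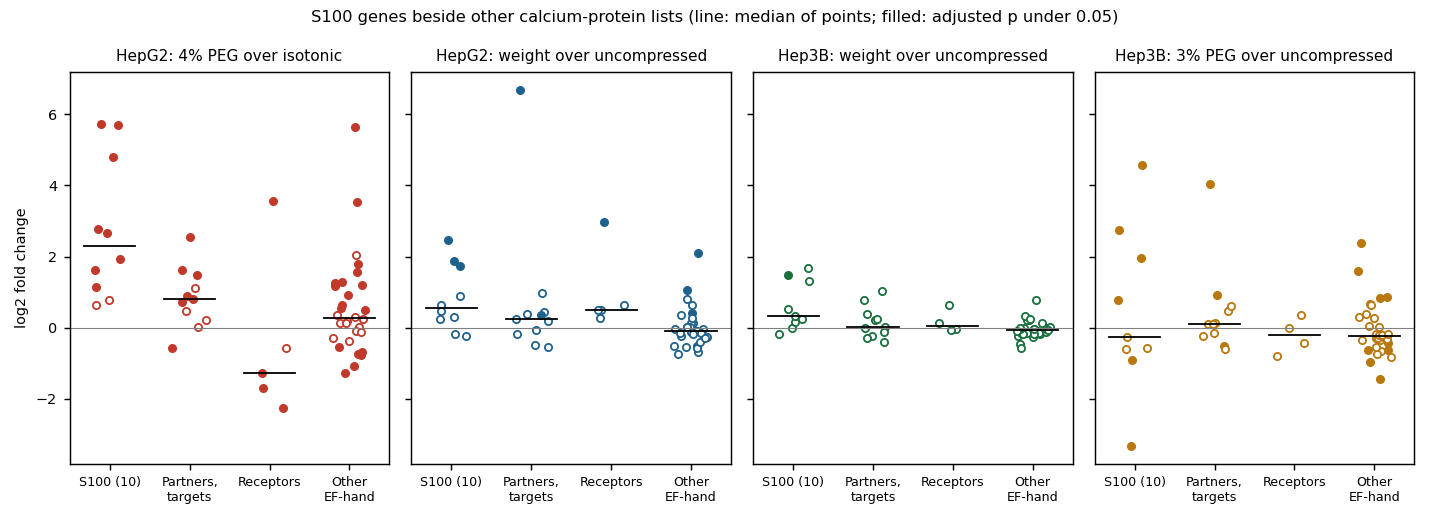
Log2 fold change (vertical axis) of the S100 genes, their partners and targets, their receptors and other EF-hand genes in the 4 compression comparisons, 1 point a gene, with a line at the median of the points. Filled points have an adjusted p under 0.05, and genes with 3 counts or fewer in both groups or with none in a group are not drawn. In 4% PEG the S100 median of 2.29 lies above the medians of 0.80, -1.26 and 0.27 of the other lists. The S100 genes were chosen with their changes in these libraries known, so this gap is a description and no evidence.

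Bile duct markers, which some S100 proteins accompany in the liver, were read as a check on cell identity. Of 7 tested, 2 were called higher and 3 lower in 4% PEG, and 4 higher under the weight in HepG2. None was called under the weight in Hep3B, and 3 were called lower in 3% PEG. The shares of all tested genes called were 46.9%, 9.58%, 1.05% and 22.5%, in the same order. Keratin 19 (KRT19) rose in 4% PEG (3.84 ± 0.25) and under the weight in HepG2 (1.71 ± 0.25) and fell in 3% PEG in Hep3B (-2.33 ± 0.25). The transcription factor SOX9 fell in 4% PEG (-0.67 ± 0.11) and in 3% PEG (-1.24 ± 0.11). Keratin 7 (KRT7) had 57 counts under the weight in HepG2 and none uncompressed, at least 19.4-fold higher against a floor of 3 counts over the group. The summed level of the list was 909 and 977 CPM in 4% PEG, against 657 and 613 CPM in isotonic medium, and 863 and 858 CPM under the weight, against 571 and 558 CPM uncompressed. The fibroblast list, with 4 of 7 genes tested, summed to 2.29 and 3.78 CPM in 4% PEG, against 12.6 and 18.6 CPM in isotonic medium, with PDGFRB called lower. The part of either list in the S100 changes was not tested.

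Genes whose log2 level followed an S100 gene most closely over the 14 libraries were named for the 3 members of highest mean CPM, among genes with a mean of at least 5 CPM. For S100A14 they included FMNL3 (Pearson r = 0.987) and CACNG4 (0.983). For S100A10 they were OAS1 (0.993), CYP2S1 (0.990) and KCNE3 (0.990), and for S100P TNFRSF10B (0.994), SSUH2 (0.993) and SRC (0.990). The 14 libraries fall into 2 lines and 7 groups, and these 3 members differ strongly between the lines, so that the coefficients describe these libraries and carry no test.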

How the data were processed

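Total RNA of 14 libraries (RNeasy kit) was read in pairs of 100 bp on HiSeq or NovaSeq machines, per the labels. STAR, DESeq2 and GRCh38 are named in the submitters' processing notes without a role or version. Which program counted reads, with which annotation and strand setting, is not given in the sources used here. Values were deposited as raw counts, whole numbers for each gene and library, which the authors neither pooled nor normalised. Groups follow the sample titles, and the Control columns of Hep3B were assigned to its uncompressed group, which has no other columns. The labels call the dish libraries biological replicates, and nothing describes separate cultures of the others, so p-values measure the spread between these samples, which may be technical.

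Counts were fitted with edgeR 4.0.16 under R 4.3.3. Settings were TMM scaling, filterByExpr with a minimum count of 10 (19232 of 56479 genes kept), robust glmQLFit on the 14 libraries together (a mean for every group, leaving 7 residual degrees of freedom), and a threshold of 0.05 on the adjusted p. A single spread estimate serves all groups, so errors may be too small for dish and too large for transwell comparisons. CPM were computed here from TMM-scaled totals, and TPM from merged exon lengths in GENCODE 29. Of groups with 1 to 3 counts a ratio is given with an exact 95% interval, and of groups with none a bound at 3 counts; both cover counting error only. Promoter windows are from RefSeq (GRCh38.p14), where all 10 members matched by symbol.

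The members and lists were chosen with earlier results of these data known. Genes named are the 10 members, other S100 genes with 10 or more counts, up to 4 called genes of each list by smallest p, called neighbours on chromosome 1, and the 3 closest genes of each of the 3 members of highest mean CPM. Some genes that this rule selects are not reported here. Alternatives comprised RLE factors, no filter, at least 5 CPM in 2 libraries, DESeq2 1.42.0, the compared groups alone, a replicate block, a fold threshold, and each library left out; the transwell libraries alone were added after seeing the data. A group left with 1 library is assumed to vary like the others. The fit was tested on simulated counts.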

Additional observations from a re-analysis of the deposited data

Results flagged for a closer look

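Among the members, 2 responses to the weight differed between the lines by the interaction test with all 14 libraries. The weight effect on S100A6 in Hep3B minus that in HepG2 was -1.62 on the log2 scale (adjusted p = 0.0121), with a rise in both HepG2 libraries under the weight and no called change in Hep3B. For S100A11 the difference was -0.989 (adjusted p = 0.0331), with a rise in every library under the weight in both lines. Leaving out single transwell libraries raised the adjusted p of S100A6 to at most 0.0803 and that of S100A11 to at most 0.191, while the differences stayed negative in each of those fits. S100A14 passed the same test with transwell libraries alone (-0.81, adjusted p = 0.00323) and with the compared groups alone (-0.82, adjusted p = 0.00448), but not with all 14 libraries (-0.81 ± 0.49, adjusted p = 0.598).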

How the results depend on the processing

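The members' log2 fold changes were recomputed 1898 times over 9 comparisons. No called value changed sign, 78 calls were lost and 58 gained. With the compared groups alone, 7 members were called under the weight in HepG2 (main 3) and 2 under the weight in Hep3B (main 1). For the weight against 3% PEG 8 were called (main 4). Over all genes the calls rose too, to 6972 (main 1842), 2474 (main 202) and 9328 (main 4444). With transwell libraries alone the member counts were 8, 3 and 8, among 7046, 2782 and 9514 genes called in all. The dish comparisons lost calls with the compared groups alone. In 4% PEG 7 members were called (main 8), among 3764 genes in all (main 9011). For 4% PEG against the weight in HepG2 5 were called (main 6), among 3551 genes (main 5751). Between surfaces 0 members were called (main 0), among 0 genes in all (main 1947). A minimum log2 fold change of 1 left 0 members under the weight in Hep3B, 2 in 3% PEG (main 6), 4 between the lines (main 8), 1 for the weight against 3% PEG and 0 for the weight between lines (main 2). At least 5 CPM in 2 libraries left 5 between the lines, since S100A2, S100A4 and S100A9 did not pass that filter. They dropped out of every other comparison too, and no call of the remaining members was lost. DESeq2 gave 2 under the weight in Hep3B and 1 between surfaces (main 0), and no filter gave 1 between surfaces. For the other changes the cause was not tested. With each library left out, members called ranged from 7 to 9 in 4% PEG, 2 to 3 and 1 to 2 under the weight in HepG2 and Hep3B, 3 to 7 in 3% PEG, 5 to 8 between lines, 0 to 1 between surfaces, 2 to 6 for the weight against 3% PEG, 0 to 2 for the weight between lines, and 5 to 7 for 4% PEG against the weight in HepG2. S100A2, S100A4 and S100A9 are limited by their few counts.

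The labels do not say that replicate numbers pair libraries. Differences between replicates correlated at 0.633 over genes between 4% PEG and isotonic medium, and between -0.0777 and 0.0732 for the transwell groups compared within a line. A replicate block left every count of called members as it was, at 8 in 4% PEG, 3 and 1 under the weight in HepG2 and Hep3B and 6 in 3% PEG, while the genes called in 4% PEG numbered 9419 in place of 9011. The block fitted 1 replicate shift shared by all groups, dish and transwell together. It could not take up a pairing of the dish groups alone, so these counts do not decide how such a pairing would act. S100P, whose dish groups overlapped, was 1.55 times and 1.54 times as high in 4% PEG within replicate numbers 1 and 2, and with the block its change was 0.63 (adjusted p = 0.0999).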
